A study of Homo sapiens with 5 samples.

Results

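The ribosomal protein genes were taken as the protein-coding genes whose symbol is RPL or RPS followed directly by a digit, leaving out the kinases whose symbols start with RPS6K. This rule found 87 of the 20163 protein-coding genes of the GENCODE annotation of hg19. Of these, 43 encode proteins of the large ribosomal subunit and 30 encode proteins of the small subunit. Another 10 are paralogs of such genes, 3 are read-through genes that share a start with a ribosomal protein gene, and 1, RPS19BP1, shares only the letters of its symbol. The rule itself uses no measured value, and it was set with earlier results of these data known.

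The ribosome reads messenger RNA in its small subunit and joins amino acids in its large subunit, and each subunit is a set of proteins held on ribosomal RNA. Ribosomal protein genes are switched on in every growing cell, usually from short promoters that start transcription at a C within a run of pyrimidines, and factors of the ETS family and YY1 are known to act at many of them. Steroidogenic factor-1 (SF-1, product of NR5A1) is a nuclear receptor of adrenal and gonadal cells that binds DNA as a monomer and controls genes of steroid synthesis. The subunit genes therefore give a set of promoters held to be constantly active and not known for control by this factor. Expression was not examined here, and the paralogs and RPS19BP1 need not be constantly active.

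Chromatin immunoprecipitation and sequencing (ChIP-seq) had mapped SF-1 in the H295R/TR SF-1 line, derived from the established human adrenocortical tumor line H295R and made to produce extra SF-1 under doxycycline. The 4 groups were basal SF-1 (no doxycycline) and overexpressed SF-1 (doxycycline for 3 days), each precipitated with a Millipore and with a Perseus antibody to SF-1. Each group pooled 3 libraries into 1 list of peaks called against input DNA, which was sequenced in 2 libraries and has no list of its own. The study asked how the repertoire of bound sites changes with the dosage of the factor. Basal cells carried the inducible construct too, and all values come from this single tumor line.

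The lists held 4393 (basal Millipore), 11910 (overexpressed Millipore), 6616 (basal Perseus) and 7453 (overexpressed Perseus) peaks. Read depth is unknown, and with 1 list per group there is no replicate error, so no p-value was computed. Where an interval is given beside a share, it is a 95% Wilson interval that covers counting error over genes or peaks only. A peak was assigned to a gene by the distance from its centre to the outermost annotated start of that gene. Each peak has a rank in its list, with 1 the best, and the ranked quantity is not stated. The lists give neither height nor enrichment.

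The sequences that follow are those on which the description of the ribosomal protein sites turns. All are printed on the strand of the gene, 5′ to 3′, from the GRCh37 (hg19) reference. The SF-1 consensus was taken as CAAGGTC or CAAGGCC preceded by C or T and followed by A or G, on either strand. Capitals mark the 9 bases that match this consensus or, where no stretch matches, the 9 that come closest to it.

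The first sequence is a peak within 1 kb of a ribosomal protein gene start that holds an exact consensus, the whole overexpressed Perseus peak upstream of RPL26 (chr17:8287101-8287249, minus strand).
RPL26: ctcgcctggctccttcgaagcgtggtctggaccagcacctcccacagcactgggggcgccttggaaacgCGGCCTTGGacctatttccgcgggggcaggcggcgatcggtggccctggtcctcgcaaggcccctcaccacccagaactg

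The second set holds start-proximal peaks without an exact consensus, shown to compare them with the RPL26 peak: the overexpressed Perseus peak at RPS23 (chr5:81573801-81573949, minus strand, 1 mismatch) and the promoter part of the overexpressed Perseus peak at RPS16 (chr19:39926590-39926795, minus strand, 2 mismatches).
RPS23: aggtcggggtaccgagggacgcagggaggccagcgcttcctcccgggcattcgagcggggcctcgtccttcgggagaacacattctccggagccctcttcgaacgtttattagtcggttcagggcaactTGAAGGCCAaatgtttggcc
RPS16: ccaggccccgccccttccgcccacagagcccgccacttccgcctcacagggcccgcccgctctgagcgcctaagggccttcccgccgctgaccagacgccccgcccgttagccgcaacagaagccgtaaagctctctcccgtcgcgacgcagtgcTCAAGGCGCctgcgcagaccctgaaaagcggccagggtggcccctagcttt

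The third set holds exact consensus sequences near the starts of ribosomal protein genes that had no peak centre within 1 kb of the start in any list: at RPL34 (chr4:109541502-109541560, plus strand) and RPL11 (chr1:24017492-24017550, plus strand).
RPL34: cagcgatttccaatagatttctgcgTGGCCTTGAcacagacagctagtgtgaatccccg
RPL11: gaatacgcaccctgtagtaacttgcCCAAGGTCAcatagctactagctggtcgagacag

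Few ribosomal protein genes had an SF-1 peak centre within 1 kb of the start, and in each list their share lay near that of all protein-coding genes. In the basal Millipore list 1 of the 87 had such a peak (1.15%, interval 0.203% to 6.23%), against 1.02% of all genes. In the overexpressed Millipore list there were 5 (5.75%, interval 2.48% to 12.8%), against 8.19% of all genes. The basal Perseus list gave 8 (9.20%, interval 4.73% to 17.1%), against 9.56%, and the overexpressed Perseus list also 8, against 10.5%. The interval of the ribosomal protein genes held the share of all genes in each of the 4 lists.

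In all but the basal Millipore list, genes with a start-proximal peak had promoters of higher median GC than other genes, so the shares were also set beside other protein-coding genes weighted to the same promoter GC in steps of 2 percentage points over 1 kb. Ribosomal protein promoters had a median GC of 56.4%, against 59.2% in other protein-coding genes. Other genes weighted in this way gave 1.16%, 8.58%, 9.71% and 10.4% in the basal Millipore, overexpressed Millipore, basal Perseus and overexpressed Perseus lists. The ratio of the ribosomal protein share to this share was 0.987 (interval 0.174 to 5.35) in the basal Millipore list and 0.670 (0.289 to 1.49) in the overexpressed Millipore list. With the Perseus antibody it was 0.947 (0.487 to 1.76) without and 0.888 (0.457 to 1.65) with overexpression. All 4 point values were below 1 and all 4 intervals included 1, so neither an excess nor a deficit was resolved by counts of 1 to 8 genes.

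Over the 4 lists together, 14 of the 87 ribosomal protein genes (16.1%) had a peak within 1 kb in at least 1 list, against 19.8% of all genes and 20.2% of genes weighted to the same GC. Of the 14, 7 (8.05% of the 87) were found in 1 list, 6 (6.90%) in 2 lists and 1, RPS15 (1.15%), in 3 lists. Among all genes these shares were 12.6%, 4.97% and 1.98%. No ribosomal protein gene had a start-proximal peak in all 4 lists, which 0.184% of all genes had. The other 73 had none. Promoter GC had a median of 60.1% (range 53.2% to 68.9%) in the 14 with a peak and 55.8% in the 73 without.

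Within 10 kb of the start the counts were 4 (4.60%, background 4.38%) and 18 (20.7%, background 19.0%) in the basal and overexpressed Millipore lists. The basal Perseus list gave 15 (17.2%, background 15.5%) and the overexpressed Perseus list 17 (19.5%, background 17.1%). Here the 4 ratios to genes of the same GC were 1.03, 1.09, 1.09 and 1.14, and each interval again included 1. Across all lists, 32 ribosomal protein genes had a peak within 10 kb and 55 had none. These counts over the lists together have no share of all genes beside them. Of the 44 peaks between 1 and 10 kb from a start, 27 lay nearer to the outermost start of a gene outside the family. The 27 include peaks close to the canonical transcript starts of RPL7 (143 bp) and RPL6 (84 bp), described further on. This wider window thus counts many peaks whose nearest outermost start is that of a neighbour.

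**Figure D1:**
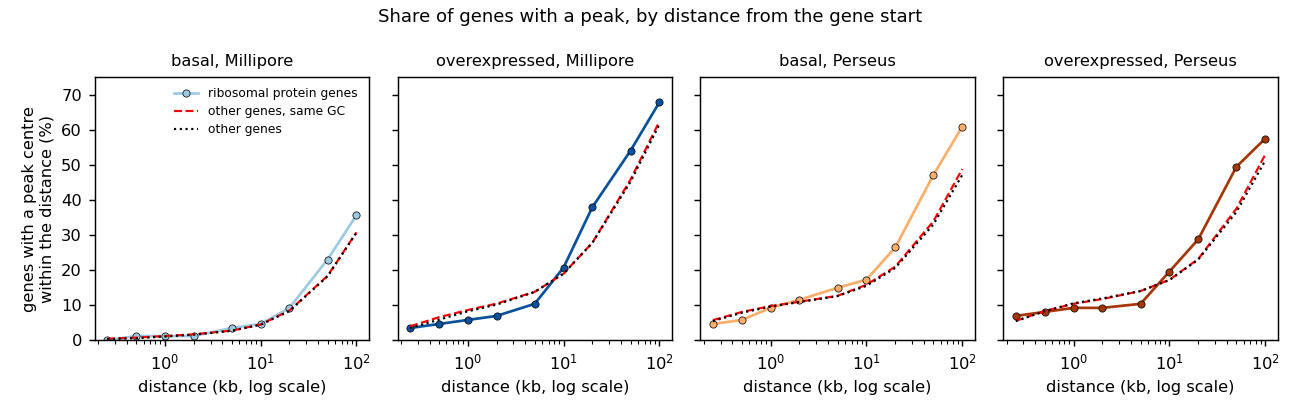
Share of genes (%, vertical axis) with an SF-1 peak centre within each distance of the start (kb, log axis), 1 panel per peak list, for the 87 ribosomal protein genes (line with points), other genes weighted to the same promoter GC (dashed) and all other protein-coding genes (dotted). At 1 kb the ribosomal protein line lies at 1.15%, 5.75%, 9.20% and 9.20%, close to or under the dashed line, and at 100 kb it lies above it in every list.

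At larger distances the point values lay above those of genes of the same GC. The share of ribosomal protein genes with a peak within 100 kb was 35.6%, 67.8%, 60.9% and 57.5% in the basal Millipore, overexpressed Millipore, basal Perseus and overexpressed Perseus lists, against 30.7%, 62.3%, 48.8% and 52.9% of genes of the same GC. The intervals were 26.4% to 46.1%, 57.4% to 76.7%, 50.4% to 70.5% and 47.0% to 67.3%. At 100 kb that of the basal Perseus list alone left out the share of genes of the same GC. At 20 kb only the overexpressed Millipore interval did so, with 37.9% (28.5% to 48.4%) against 27.8%. At 50 kb both Perseus intervals did so. These shares were 47.1% (36.98% to 57.5%) against 33.9% at basal and 49.4% (39.2% to 59.7%) against 37.5% at overexpressed dosage. The basal Millipore interval held the share of genes of the same GC at 20, 50 and 100 kb. The median distance to the nearest peak was 181, 36.8, 60.1 and 50.5 kb in the order of lists given for 100 kb. For other genes, not weighted by GC, it was 209, 62.3, 114 and 94.1 kb. Ribosomal protein genes also lay in denser surroundings, with a median of 4 other gene starts within 100 kb against 3, and 12 of the 87 (13.8%) lay on chromosome 19 against 7.31% of other genes. The part of gene density in the larger distances was not tested.

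By subunit, the shares with a peak within 1 kb in any list lay on either side of the 19.8% of all genes. Of the 43 large subunit genes, 4 (9.30%) had a peak within 1 kb in any list, with 1, 2, 2 and 1 in the basal Millipore, overexpressed Millipore, basal Perseus and overexpressed Perseus lists. Of the 30 small subunit genes, 8 (26.7%) had one, with 0, 3, 5 and 6 in the same order of lists. Of the 10 paralogs, 2 had such a peak, and none of the read-through genes or RPS19BP1 did. The gap between the subunits rests on 12 genes, was seen after the counts were made and was not tested. It narrows to 7 of 43 against 8 of 30 when distances are taken from the canonical transcript start, as described for RPS29 and others further on. The counts on that start have no share of all genes beside them.

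Among the small subunit genes, RPS15, whose protein sits in the head of the small subunit, was the 1 gene found in 3 lists. In the basal Millipore list its nearest peak lay 8668 bp downstream, inside APC2. The overexpressed Millipore list had a peak 193 bp downstream of the RPS15 start (rank 10648 of 11910), and the overexpressed Perseus list one 218 bp downstream (rank 5626 of 7453) that overlapped it. The basal Perseus peak lay 507 bp upstream (rank 5646 of 6616) and overlapped neither. Both antibodies thus marked the same place at the start of RPS15 when SF-1 was overexpressed, but all 3 peaks came from the worse-ranked part of their lists.

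RPS16, a component of the small subunit, held 1 of the 3 best-ranked start-proximal peaks of the family in the overexpressed Perseus list. That list had peaks 86 bp upstream of the RPS16 start (rank 498) and 339 bp downstream (rank 7078), and the basal Perseus list had a peak 136 bp upstream (rank 5902) overlapping the first. The promoter is shared with SUPT5H, a transcription elongation factor gene on the other strand whose start lies nearer than that of RPS16 to the centre of the basal peak. RPS16 had no Millipore peak within 1 kb, and the nearest overexpressed Millipore peak lay 3736 bp upstream of its start (rank 1848).

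RPS29, which encodes a small zinc-binding protein of the small subunit, had peaks at both its outermost and its canonical start in both Perseus lists. Its outermost start at chr14:50065882 lies 12784 bp upstream of its canonical start and next to the start of LRR1 on the opposite strand. The peaks there were centred 232 bp downstream of the RPS29 outermost start in the basal Perseus list (rank 802, best of the start-proximal peaks of the family in that list) and 207 bp downstream in the overexpressed Perseus list (rank 216, best in that list). They lay nearer to the LRR1 start, at 171 and 196 bp. A second pair of peaks was centred 27 bp upstream (basal Perseus, rank 1318) and 2 bp upstream (overexpressed Perseus, rank 708) of the canonical RPS29 start. Neither Millipore list had a peak within 10 kb of the outermost start of RPS29.

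RPS2, a small subunit protein gene on chromosome 16, was found by both antibodies at overexpressed dosage and in neither basal list. The Millipore peak lay 208 bp upstream of its start, in an exon of the noncoding gene SNHG9 (rank 10009), and the Perseus peak 217 bp downstream, in a coding exon (rank 5611). They did not overlap. RPS19, the gene most often mutated in Diamond-Blackfan anemia, was found in 1 list, with an overexpressed Millipore peak 600 bp upstream (rank 9157).

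Of the large subunit genes, RPL26 and RPL35 were found in 2 lists each. RPL26, whose protein also binds the mRNA of the tumor suppressor p53, had basal Perseus peaks 319 bp (rank 3440) and 694 bp (rank 2814) upstream of its start and an overexpressed Perseus peak 644 bp upstream (rank 3243). The latter overlapped the basal peak at 694 bp, and both hold the consensus printed above. An unnamed protein-coding gene of the annotation starts within 1 kb of RPL26. RPL35 was the 1 ribosomal protein gene with a start-proximal peak in the basal Millipore list, 440 bp upstream (rank 2396 of 4393). Its basal Perseus peak lay 60 bp downstream of the start (rank 5084) and did not overlap the Millipore peak, which was centred nearer to the start of ARPC5L, a subunit gene of an actin-nucleating complex on the opposite strand. RPL35 had no peak within 1 kb in either overexpressed list.

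RPL5 and RPL10A, also of the large subunit, each had a single overexpressed Millipore peak. The RPL5 peak lay 230 bp downstream (rank 4017, the best of the start-proximal peaks of the family there) and the RPL10A peak 297 bp downstream (rank 5899). RPL5 protein is known to hold back the p53 regulator MDM2 when ribosome assembly is disturbed. Of the paralogs, RPL26L1, a close relative of RPL26, had a basal Perseus peak 643 bp downstream of its outermost start and 52 bp upstream of its canonical start (rank 1950). RPS23 and the paralog RPS27L fell outside the rule for named genes and were chosen after their values were seen. Each had a single overexpressed Perseus peak, 340 bp (rank 2102) and 195 bp (rank 6663) downstream of the outermost start.

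**Figure D2:**
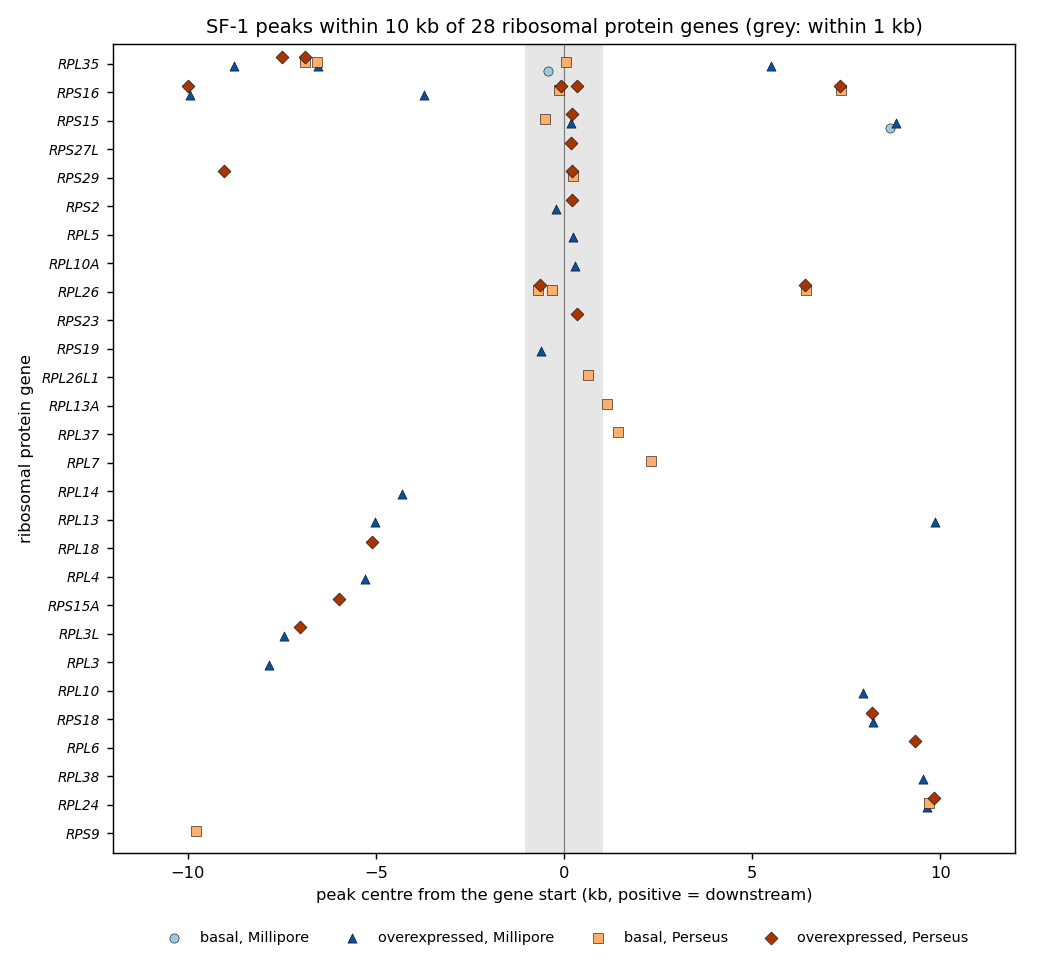
Position of SF-1 peak centres within 10 kb of the outermost start of 28 ribosomal protein genes (kb, horizontal axis, positive downstream), 1 row per gene, with colour and marker for the peak list and grey shading for 1 kb around the start. Peaks of both Perseus lists fall together at RPS16, RPS29 and RPL26, and overexpressed peaks of both antibodies at RPS15.

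Few genes of the family could be compared between lists, since 1 to 8 had a start-proximal peak in each. With the Perseus antibody, 5 genes, RPL26, RPS15, RPS16 and RPS29 among them, had a peak within 1 kb at both dosages, of 8 at basal and 8 at overexpressed dosage, and 4 of these 5 had overlapping peaks. Among all genes, 50.8% of those found at basal dosage were found again at overexpressed dosage with this antibody. With the Millipore antibody, the 1 basal gene was not among the 5 overexpressed genes, where 38.5% of all basal genes were found again. Between antibodies, RPL35 alone was shared at basal dosage, without overlapping peaks, and RPS15 and RPS2 at overexpressed dosage, with overlapping peaks at RPS15. Among all genes of the Millipore lists, 39.5% were found again with the Perseus antibody at basal and 38.8% at overexpressed dosage. The shares of all genes count any peak within 1 kb in both lists, whether or not the peaks overlap. The counts of overlapping peaks in the family have no share of all genes beside them. The Millipore lists differ in length by more than the Perseus lists, and the part of list length in these counts was not tested.

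The 25 peaks within 1 kb of ribosomal protein starts included 16 centred downstream of the outermost start, and 10 of the 25 had the start of another protein-coding gene outside the family within 1 kb. Distances ranged from 694 bp upstream to 643 bp downstream. Median rank percentile, on which 0 is the best of a list and 100 the last, was 76.9 for the 5 overexpressed Millipore peaks, against 47.3 for other peaks within 1 kb of a protein-coding start. For the 9 basal Perseus peaks it was 42.5 against 40.2, and for the 10 overexpressed Perseus peaks 35.9 against 42.6. The 5 overexpressed Millipore peaks of the family had percentiles from 33.7 (RPL5) to 89.4 (RPS15). None was among the best-ranked 25% of that list, against 27.0% of its other start-proximal peaks, and a count of 0 of 5 does not resolve a difference from that share.

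The SF-1 consensus was rare in these peaks. It was present in 2 of the 25, both at RPL26, 1 in each Perseus list. Among other peaks within 1 kb of a protein-coding start it was present in 20.8% and 9.94% of the basal and overexpressed Millipore peaks and in 14.5% and 10.9% of the Perseus peaks at basal and overexpressed dosage. The family gave 1 of 9 (interval 1.99% to 43.5%) and 1 of 10 (1.79% to 40.4%) in the Perseus lists and 0 of 5 in the overexpressed Millipore list, for which the interval reached 43.4%. Counts of this size did not resolve a difference from other start-proximal peaks. With 1 mismatch allowed, as at RPS23 in the sequences above, a match was held by 5 of the 9 basal Perseus peaks of the family (55.6%, interval 26.7% to 81.1%) and by 7 of the 10 overexpressed Perseus peaks (70.0%, interval 39.7% to 89.2%), against 42.2% and 44.7% of other start-proximal peaks. In the Millipore lists it was held by 0 of 1 at basal and 2 of 5 at overexpressed dosage (40%, interval 11.8% to 76.9%), against 46.4% and 43.2%. Each of these intervals held the share of the other start-proximal peaks.

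Consensus sequences near the starts were also set beside the peaks. Within 1 kb of the start, 11 of the 87 ribosomal protein genes (12.6%) had at least 1 consensus sequence, against 18.1% of all genes. These included RPL11, RPL32, RPL35A, RPL34, RPL30, RPL13, RPL26, RPL27, RPL36A and the read-through gene RPL36A-HNRNPH2, which shares its site with RPL36A. Among the 11, RPL26 alone had a peak within 1 kb, in both Perseus lists and in neither Millipore list. The consensus of RPL34 lies 194 bp and that of RPL11 711 bp upstream of the start, and neither gene had a peak centre within 1 kb. Among all genes with a consensus within 1 kb, 2.33% and 13.4% had a peak in the basal and overexpressed Millipore lists and 17.98% and 18.7% in the Perseus lists at basal and overexpressed dosage. Of ribosomal protein genes without a consensus, 1.32%, 6.58%, 9.21% and 9.21% had a peak in the same order of lists, against 0.726%, 7.05%, 7.71% and 8.69% of all genes without one. A single gene with a peak among 11 does not resolve a difference from these shares.

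The choice of start matters for some genes. Outermost and canonical starts lay a median of 19 bp apart in the 87 genes, but over 1 kb apart in 9 of them. Measured from the canonical start, 1, 6, 9 and 9 genes had a peak within 1 kb in the basal Millipore, overexpressed Millipore, basal Perseus and overexpressed Perseus lists, and 17 in any list. No gene was lost. The genes gained were RPL10, whose protein takes part in the last steps of large subunit assembly, with an overexpressed Millipore peak 468 bp upstream (rank 8562), RPL7, with a basal Perseus peak 143 bp downstream (rank 1374), and RPL6, with an overexpressed Perseus peak 84 bp downstream (rank 2509). On this start 1.02%, 8.76%, 10.1% and 11.2% of all genes had a peak, in the order of lists given for the counts. The 17 genes in any list have no share of all genes on this start beside them.

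Promoters were described over 250 bp before to 50 bp after the canonical start. The ETS core CCGGAAG, searched on both strands, was present in 30 of the 87 ribosomal protein promoters (34.5%) and in 14.0% of all protein-coding promoters. The YY1 core AAGATGGC, also on both strands, was present in 11 (12.6%) against 4.01%. A C followed by at least 4 pyrimidines within 5 bases of the start was found in 69 (79.3%) against 21.7%. TATAAA, on the strand of the gene, was present in 4 (4.60%) against 7.13%, the palindromic NRF1 core in 2 (2.30%) against 1.69%, and the SF-1 consensus in 3 (3.45%) against 2.17%. None of the 3 promoters with an SF-1 consensus belonged to the 14 genes (16.1% of the family) with a start-proximal peak. Of the 14, 4 had the ETS core, 11 the pyrimidine start, 2 the NRF1 core, 1 TATAAA and 0 the YY1 core. These overlaps have no share of all genes beside them, and counts of this size do not resolve a difference.

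**Figure D3:**
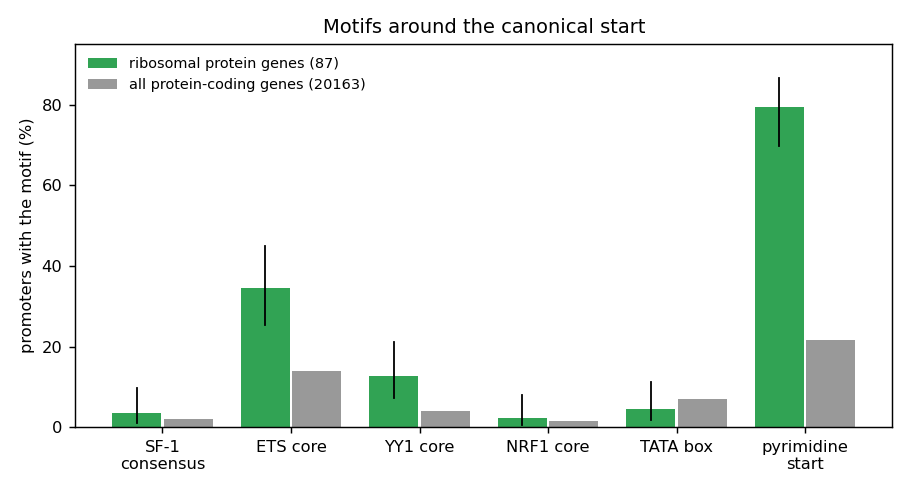
Share of promoters (%, vertical axis) that hold each motif in 250 bp before to 50 bp after the canonical start, for the 87 ribosomal protein genes and for all 20163 protein-coding genes, with 95% Wilson intervals as error bars on the former. The pyrimidine start (79.3% against 21.7%) and the ETS core (34.5% against 14.0%) are more frequent in ribosomal protein promoters, and the SF-1 consensus is at 3.45% against 2.17%.

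Other genes that every cell uses were counted in the same way. Of 78 genes for mitochondrial ribosomal proteins, which build the separate ribosome of that organelle, 3, 14, 14 and 12 had a peak within 1 kb in the basal Millipore, overexpressed Millipore, basal Perseus and overexpressed Perseus lists. In the overexpressed Millipore list this was 17.9% (interval 11.0% to 27.9%), against 5.75% (2.48% to 12.8%) of the cytosolic ribosomal protein genes. The mitochondrial shares were 3.85%, 17.9%, 17.9% and 15.4%, against 1.02%, 8.57%, 9.73% and 10.5% of genes of the same GC. Of 71 translation factor genes the counts were 0, 7, 14 and 12 (0%, 9.86%, 19.7% and 16.9%), against 1.09%, 9.46%, 11.2% and 12.1% of genes of the same GC. Of 50 proteasome subunit genes they were 0, 2, 8 and 6 (0%, 4%, 16% and 12%), against 1.13%, 9.08%, 10.2% and 11.2%. Median promoter GC was 56.9% in the mitochondrial list, 60.8% in the translation factor list and 58.2% in the proteasome list. Of 15 genes of steroid synthesis, 0, 1, 1 and 1 had a peak within 1 kb (6.67% for a single gene), against 1.01%, 5.82%, 6.65% and 7.06% of genes of the same GC. Within 10 kb there were 1, 4, 2 and 5 (6.67%, 26.7%, 13.3% and 33.3%), against 3.86%, 14.8%, 12.05% and 12.9% of genes of the same GC. No pair of lists was tested against each other.

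**Figure D4:**
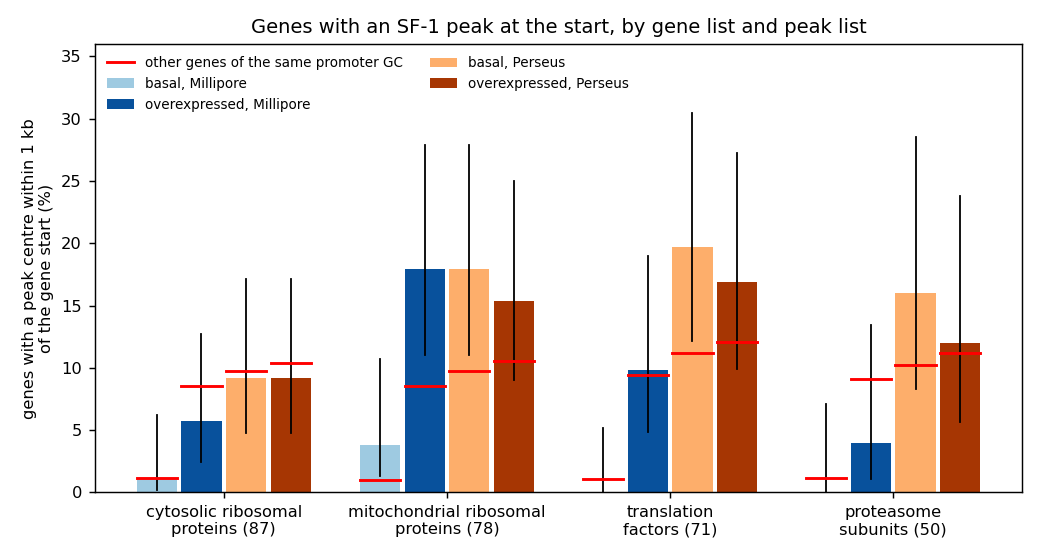
Share of genes (%, vertical axis) with an SF-1 peak centre within 1 kb of the start, for 4 gene lists (horizontal axis) and 4 peak lists (coloured bars), with 95% Wilson intervals as error bars and red lines for other genes of the same promoter GC. Ribosomal protein bars (1.15%, 5.75%, 9.20% and 9.20%) lie at or under their red lines, while the bars of the mitochondrial ribosomal proteins reach 17.9%.

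Processed pseudogenes of ribosomal protein genes are numerous, and reads that fit several copies can be lost or misplaced. In the 1599 annotated copies, 4, 11, 7 and 11 peaks of the basal Millipore, overexpressed Millipore, basal Perseus and overexpressed Perseus lists were centred inside, which is 2.58, 7.08, 4.51 and 7.08 peaks per Mb against 1.54, 4.17, 2.31 and 2.61 over the genome. The bodies of the 87 genes, 1.13 Mb in all, held 3, 6, 13 and 12 peaks in the same order of lists, or 2.66, 5.32, 11.5 and 10.6 per Mb. Other gene bodies were not counted in this way, so these densities have no share of like sequence beside them. How reads with several positions were treated is not given in the sources used here, and their part in these counts was not tested.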

How the data were processed

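Per the labels and the study's methods, chromatin of H295R/TR SF-1 cells was precipitated with the Millipore or Perseus antibody, and the authors mapped reads to hg19 with ELAND and found peaks against input in the pooled libraries with CisGenome (SeqPeak). The submitters' processing notes name CASAVA 1.6. The deposited lists give position and rank, and the deposited score was constant and not used. Members and gene lists were chosen with earlier results of these data known.

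Distances ran from the peak centre to gene starts of GENCODE version 44 mapped to GRCh37. Shares of other genes were weighted to the promoter GC of the ribosomal protein genes in steps of 2 percentage points over 1 kb. Wilson intervals were used. No list of random genes was drawn and no test was made. Named genes had a peak within 1 kb in at least 3 lists, held 1 of the 3 best-ranked such peaks of a list, held a peak with the consensus, or were found in both lists of 1 dosage and neither list of the other; exceptions are stated. The counting was tested on simulated data. Alternatives covered list length, distance, start, GC strata, CpG, membership and the form of the consensus. Scripts used pandas 2.3.3, numpy 2.4.6, pysam 0.24.0, statsmodels 0.14.6 and matplotlib 3.10.9 under Python 3.11.15. Files of the input libraries were not analysed here. Certain genes are counted in the totals but not reported here by name or shown in the plot of positions.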

Additional observations from a re-analysis of the deposited data

How the results depend on the processing

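Of 108 alternative values for 20 results, 91 were labelled as near the main value and 17 as moved. For shares and ratios, moved means outside the counting interval of the main value. Counts of shared genes have no such interval. Their drops from 1 to 0 and from 2 to 1 between antibodies were labelled moved, and that from 5 to 4 between Perseus dosages was not. With the better-ranked 50% of each list, the basal Millipore share within 1 kb fell to 0% and its ratio to genes of the same GC to 0, the share within 10 kb was 1.15%, and the overexpressed Millipore shares were 2.30% and 10.3%. With every list cut to the length of the shortest, the overexpressed Millipore shares were 1.15% within 1 kb and 9.20% within 10 kb. At 1 kb the overexpressed Millipore ratio to genes of the same GC was 0.491 with the better-ranked 50% and 0.338 with the cut list. The 10 kb shares of the shortened lists have no share of other genes beside them. With the outer distance at 5 kb the share was 10.3% in both overexpressed lists, against 13.8% (Millipore) and 14.0% (Perseus) of genes of the same GC. At 20 kb it was 37.9% (interval 28.5% to 48.4%) in the overexpressed Millipore list, against 27.8%. In both Perseus lists, 0% of the start-proximal peaks of the family held an 8-base consensus, without the base before it and ending in A. The 9-base consensus with 1 mismatch allowed was held by 55.6% (basal) and 70.0% (overexpressed) of them. Counting genes as shared between antibodies only where peaks overlapped left 0 at basal and 1 at overexpressed dosage. Leaving out genes with another start within 1 kb, an alternative chosen after seeing the data like the canonical start, gave 0% for basal Millipore. Fewer peaks or genes enter these shorter lists by construction. In the other 3 lists the ratios to genes of the same GC ran from 0.338 (overexpressed Millipore cut to the length of the shortest list) to 1.02 (basal Perseus, canonical start). With strata of observed to expected CpG in place of GC, they were 0.522 (overexpressed Millipore), 0.668 (basal Perseus) and 0.615 (overexpressed Perseus), and 1.05 for basal Millipore. Each lay inside the interval of the ratio by GC. Median observed to expected CpG was 0.785 in ribosomal protein promoters and 0.685 in other genes. No paired analysis was possible because each group has 1 list, and leaving out a library was not possible because libraries were pooled. Read depth, peak height and enrichment are unknown, and the intervals take genes as independent.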
